A study of Mus musculus with 4 samples.

Results

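The immediate-early, NF-kB feedback and heat-shock genes were examined by single-cell RNA sequencing of mouse brown fat, in the cells that digestion releases beside the adipocytes (the stromal vascular fraction, SVF). The list was taken by gene symbol and holds 39 of the 32285 genes counted: 24 immediate-early genes, 3 NF-kB feedback genes and 12 heat-shock genes. Levels are raw transcript counts (unique molecular identifiers, UMIs) summed over cells and given as counts per 1000000 UMIs (CPM), by library and by cell lineage. There were 4 libraries, 1 per group, made with 10x Genomics 3′ chemistry. WT was wild-type C57BL6/J mice, labelled 10 weeks, whereas a figure legend of the study speaks of wild-type mice of 8 and 16 weeks, so their age is not settled. The db/db groups carried a mutation of the leptin receptor, with mice of 8 weeks (db/db 8w) and of 16 weeks (db/db 16w). The labels give their strain as C57BL6/J too, while the methods name B6.BKS(D)-Leprdb/J. HFD was C57BL6/J mice on a high-fat diet, labelled 10 weeks, whereas the study's methods start the diet at 10 weeks and feed it for 10 weeks, so the age of this group is not settled. The methods describe male mice, fasted before the tissue was taken, with SVF of 3 mice pooled for each library. They give collagenase digestion at body temperature for the isolation of immune cells, and both immediate processing after sorting and frozen storage for single-cell work, so the handling of each library is not settled.

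Immediate-early genes are transcribed within minutes of a signal, from factors already in the cell and with no new protein needed. Most encode transcription factors or short-lived brakes on the same signal, and they are known to be switched on by growth factors and by inflammatory stimuli. NF-kB feedback genes are induced by NF-kB and act back on it, and heat-shock genes encode chaperones, of which the inducible ones are driven by heat-shock factor 1 when proteins unfold. Macrophages of adipose tissue are known to express both when activated, and warm enzymatic digestion is a known inducer of both in isolated cells.

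Heat-shock factor and serum response factor are known to bind particular letters of DNA, and short promoter stretches that hold such letters are shown so that both programmes can be read side by side. They come from RefSeq promoters of build GRCm38.p6, which run from 250 bases before to 50 bases after a gene's start, and 31 of the 39 members had one. Each stretch is 30 bases, 5′ to 3′ on the gene's strand, with the motif in capitals. In the heat-shock genes the capitals mark paired GAA blocks (GAANNTTC or TTCNNGAA), or for Hspe1 2 overlapping matches of the 3-block heat-shock element, which itself contains the paired form. In Zfp36 and Egr2 they mark the CArG box, the serum response element's core, and in Dusp1 and Btg2 the cyclic AMP response element TGACGTCA.
Hspa1a: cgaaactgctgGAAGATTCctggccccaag
Hspa1b: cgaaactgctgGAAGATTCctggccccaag
Hspb1: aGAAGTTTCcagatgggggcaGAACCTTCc
Dnaja1: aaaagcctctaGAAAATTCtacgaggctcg
Hspe1: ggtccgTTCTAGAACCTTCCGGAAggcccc
Zfp36: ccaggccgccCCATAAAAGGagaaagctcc
Egr2: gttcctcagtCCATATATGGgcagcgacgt
Dusp1: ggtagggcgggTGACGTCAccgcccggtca
Btg2: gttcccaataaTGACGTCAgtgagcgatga

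In the order printed the stretches lie at chr17:34972242-34972271 (minus strand), chr17:34959324-34959353 (minus strand), chr5:135887801-135887830 (plus strand), chr4:40722333-40722362 (plus strand), chr1:55088053-55088082 (plus strand), chr7:28379267-28379296 (minus strand), chr10:67537787-67537816 (plus strand), chr17:26508597-26508626 (minus strand) and chr1:134079303-134079332 (minus strand). The stretches of Hspa1a and Hspa1b are the same letters, and 296 of the 300 positions (98.7%) of their promoters were identical. Searched on both strands, the paired blocks were found in 8 of the 9 heat-shock members with a promoter (all but Dnajb1), in 3 of 20 immediate-early members (Egr2, Fosl2 and Jun) and in neither of the 2 NF-kB feedback members, against 17.0% of 27025 genes. The 3-block element was found in Hspd1, Hspe1 and Hsph1, against 0.662% of genes. The promoters of Hspd1 and Hspe1 overlap, and their matches are the same bases read on opposite strands. Counts of heat-shock members are therefore not counts of separate sequences. CArG boxes were found in 2 immediate-early members and 1.81% of genes, and TGACGTCA in 2 and 2.03%. The kB site, the sequence bound by NF-kB, was found in both NF-kB feedback members with a promoter (Nfkbia and Tnfaip3), in 6 of 20 immediate-early and 4 of 9 heat-shock members, against 9.55% of genes. Those 4 were Hspa1a and Hspa1b, with near-identical promoters, and Hspd1 and Hspe1, which share the site. The AP-1 site TGANTCA was found in Tnfaip3 and Bag3 and in 8.97% of genes, and TATAAA in 4 immediate-early members, in Nfkbia and Tnfaip3, and in 15.7% of genes. A match describes letters in a window and is neither a site in use nor a cause of any level.

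Cells were assigned to lineages from raw marker UMIs, with none of the 39 members among the markers. In the order WT, db/db 8w, then db/db 16w, then HFD, which is kept for every run of 4 values, the gates held 1156, 2724, 2426 and 1587 macrophages and 4397, 7123, 1233 and 1723 stromal cells. Endothelial cells numbered 10, 69, 1383 and 1280, and levels are given where a library held at least 50, so WT has none. The macrophages expressed C1qa, C1qb and C1qc and the stromal cells Col1a1, Col3a1 and Dcn, which also serve as gate genes. The cells kept had a median of 2733 to 6218.5 UMIs per library, and kept totals are set out with the processing. The libraries differed in ways that touch the levels below. Median mitochondrial shares of kept cells were 4.29, 5.94, 0.799 and 10.5%, and 1615, 6166, 55 and 11948 barcodes lay over the 15% limit. Stromal cells were shallower in both db/db libraries (medians 2911 and 2786 UMIs) than in WT and HFD (6860 and 5116), whereas macrophages had medians of 5345 to 5908. Xist, a transcript of the inactive X chromosome, lay at 207 CPM in db/db 16w and at 0.688, 0.187 and 0.245 CPM in the WT, db/db 8w and HFD libraries, so db/db 16w stands apart from the stated sex and every value of db/db 16w rests on that 1 library. Stromal markers in gated macrophages summed to 792, 416, 24.0 and 338 CPM, which is 2.0, 0.921, 0.0489 and 0.731% of their level in stromal cells of the same library, and free RNA can add to any lineage in this way. Between 7 and 25 kept barcodes were shared by each pair of libraries.

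Each group is 1 library, so no test was possible. Ratios to WT are log2 ratios of CPM, and all 3 share the WT library. The 95% intervals given are exact Poisson intervals for levels and exact conditional binomial intervals for ratios, they cover counting error only, and a value outside an interval says that the libraries differed, not the conditions. For levels of macrophages and stromal cells at 1000 CPM or more the interval reached either side of the value by at most 2.80%, at 100 to 1000 CPM at most 8.68%, and at 10 to 100 CPM at most 24.0%.

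Over all gated cells of a lineage, WT held the highest summed level of all 3 lists in macrophages and in stromal cells. Summed over the 24 immediate-early genes, macrophages lay at 33845, 17998, 5287 and 9528 CPM, so that 3.38% of their UMIs in WT and 0.529% in db/db 16w were of these genes. The log2 ratios to WT were -0.91 (95% interval -0.92 to -0.90) for db/db 8w, -2.68 (95% interval -2.69 to -2.67) for db/db 16w and -1.83 (95% interval -1.84 to -1.82) for HFD. The db/db 16w library was lowest, 6.40-fold below WT. It was 3.25-fold below WT among macrophages gated on UMIs of Lyve1, Folr2, Cd163 and Cbr2, by a rule given below. That kind made up 1018 of 1156 macrophages in WT and 290 of 2426 in db/db 16w. In stromal cells the sums were 18894, 14108, 5557 and 16398 CPM, with ratios of -0.42, -1.77 and -0.20. The db/db 16w library lay farthest from WT there, with a ratio of -1.09 in cells of 2000 to 8000 UMIs. In that window the small HFD difference turned sign, and its direction varied between bins of depth, as given below.

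The 3 NF-kB feedback genes summed to 5593, 5179.9, 385 and 1354 CPM in macrophages (log2 ratios -0.11, -3.86 and -2.05) and to 1217, 900.4, 266 and 449.9 CPM in stromal cells (-0.44, -2.20 and -1.44). WT and db/db 8w macrophages were both high, and db/db 16w was 14.5-fold and HFD 4.13-fold below WT. The 12 heat-shock genes summed to 25218, 12994, 4514 and 4634 CPM in macrophages (-0.96, -2.48 and -2.44) and to 13218, 11370.4, 5938 and 4319 CPM in stromal cells (-0.22, -1.15 and -1.61). In stromal cells HFD was the lowest library for this list (3.06-fold below WT), where for the other lists it was db/db 16w. In macrophages db/db 16w and HFD were close, 5.59-fold and 5.44-fold below WT. Fewer cells with high levels and less RNA per cell cannot be told apart in these sums, and the spread over cells is given further on.

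**Figure D1:**
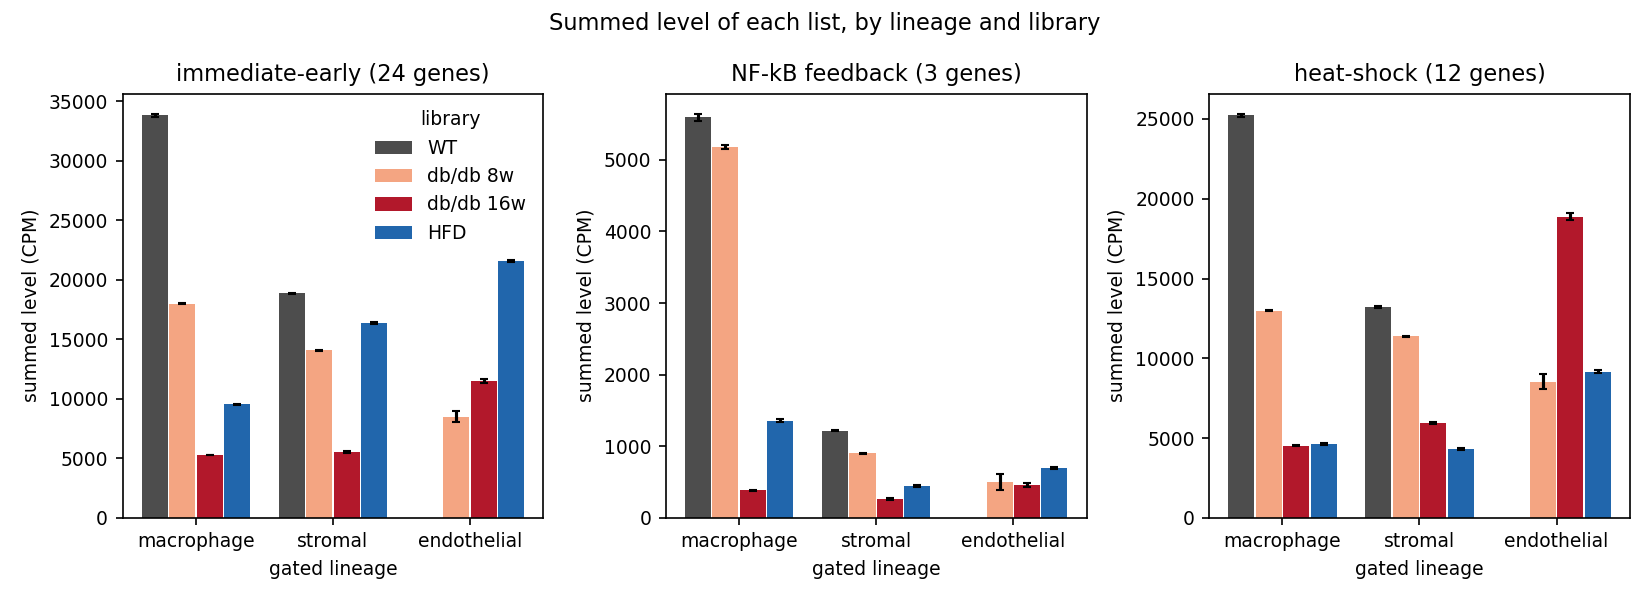
Summed level (CPM, bars from 0) of the immediate-early, NF-kB feedback and heat-shock genes in gated macrophages, stromal cells and endothelial cells, with 1 bar per library and 95% counting intervals. In macrophages the immediate-early sum is 33845 CPM for WT and 5287 CPM for db/db 16w, and the heat-shock sum in endothelial cells is highest in db/db 16w at 18874 CPM.

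Counts past 2-fold use ratios with 1 CPM added to each level and genes with a mean of at least 10 CPM over the 4 libraries. Gene by gene, 38 of the 39 members passed the filter on low values in each lineage. The 1 left out was Egr3 in macrophages and Dusp2 in stromal cells, and their values are given with their families. Past 2-fold lower than WT were 13 of 38 members in macrophages of db/db 8w, against 3.75% of the 7458 genes measured there, 36 in db/db 16w (22.2% of all genes) and 27 in HFD (9.02%). Past 2-fold higher were 1, 0 and 0 members, against 5.38%, 19.1% and 12.8% of all genes. In stromal cells 3 members were past 2-fold lower in db/db 8w (2.08% of 8424 genes), 31 in db/db 16w (12.8%) and 15 in HFD (6.34%). Past 2-fold higher in those cells were 2, 1 and 3 members (5.22%, 12% and 8.99%). In stromal cells of 2000 to 8000 UMIs, 1, 23 and 6 members were lower in db/db 8w, then db/db 16w, then HFD, and 3, 1 and 6 higher. No share of all genes is given for those cells, so these counts cannot be set against a background. The median log2 ratio of the members was -0.79, -2.82 and -1.73 in macrophages and -0.29, -1.61 and -0.79 in stromal cells. Over all genes it was 0.06, -0.09 and 0.18 in macrophages and 0.04, -0.01 and 0.08 in stromal cells. By list, the members lower in macrophages were 7, 22 and 15 of 23 immediate-early genes, 0, 3 and 3 of 3 NF-kB feedback genes and 6, 11 and 9 of 12 heat-shock genes. In stromal cells they were 3, 20 and 7 immediate-early, 0, 3 and 2 NF-kB feedback and 0, 8 and 6 heat-shock genes, while the members past 2-fold higher were all immediate-early. The lowest of the 3 ratios was that of db/db 16w for 33 of 38 members in macrophages and 31 in stromal cells, against 50.3% of all genes measured in macrophages and 44.3% in stromal cells. It was that of HFD for the rest (17.8% and 28.2% of all genes), with heat-shock genes split 7 and 5 in macrophages and 6 and 6 in stromal cells. Past 2-fold lower in all 3 obese libraries were 12 of 38 members in macrophages (2.67% of all genes) and 2 in stromal cells (1.39%). Past 2-fold higher in all 3 were 0 and 1 members (4.12% and 3.67%).

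**Figure D2:**
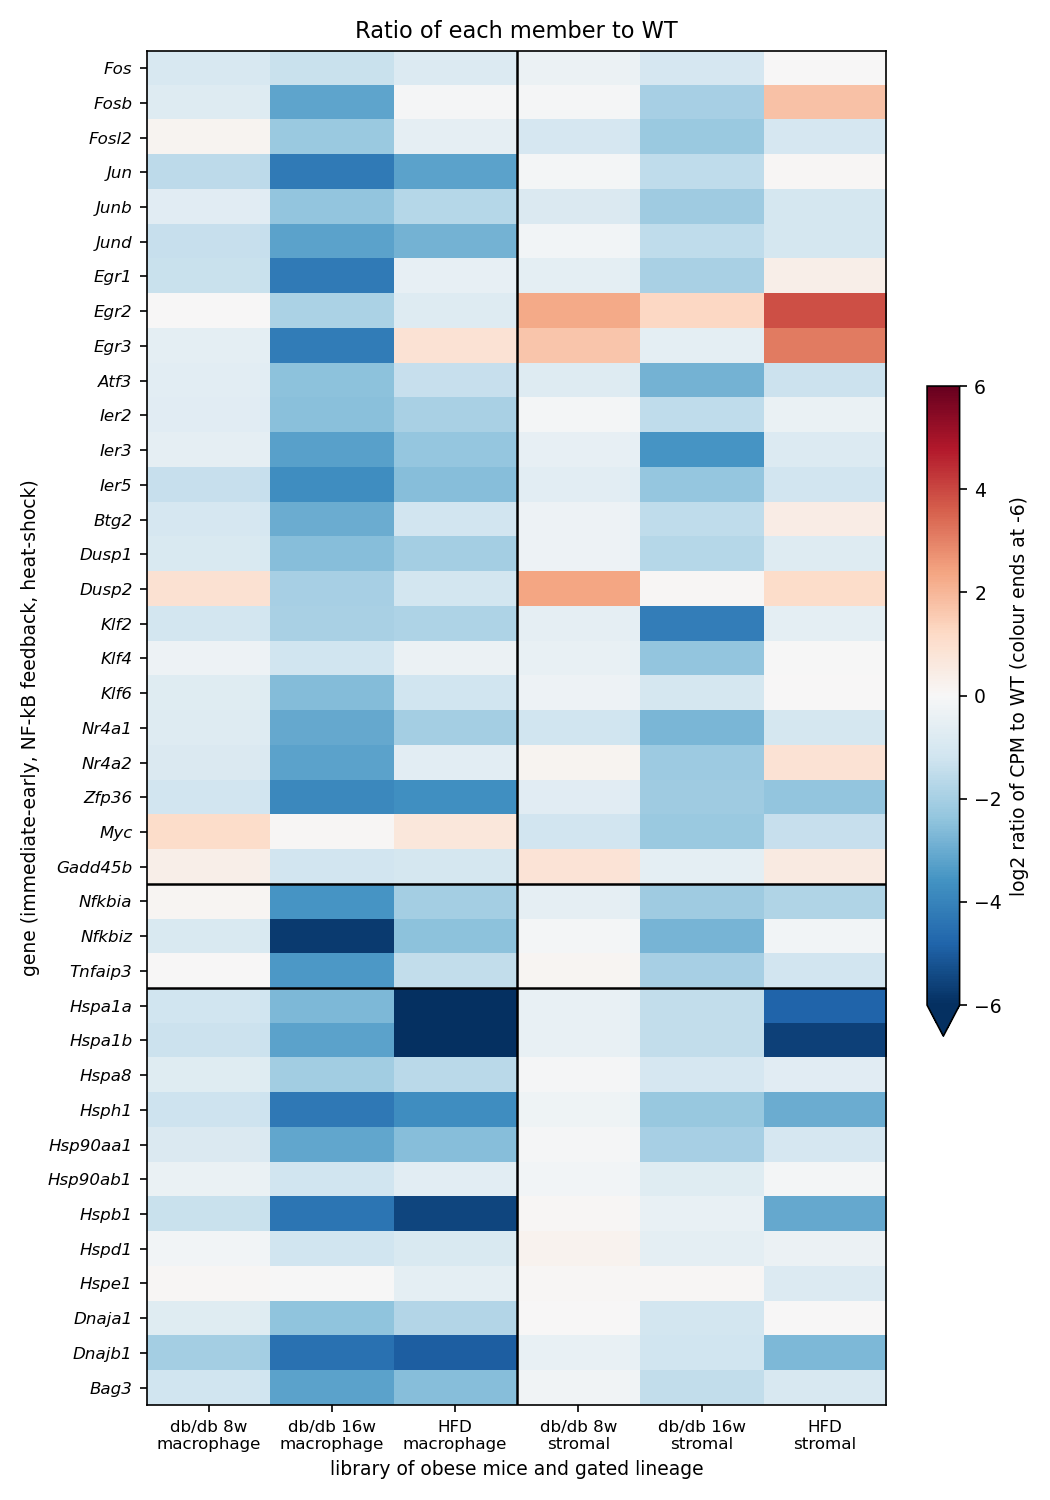
Log2 ratio to WT of each of the 39 genes (rows) in macrophages and stromal cells of each obese library (columns), drawn as colour, with blue below and red above WT and the scale ending at -6. Most squares of the macrophage columns are blue, Hspa1b of HFD passes the end of the scale at -7.67, and Egr2 is red in all 3 stromal columns.

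Fos and Jun proteins pair into AP-1, the transcription factor most directly tied to the immediate-early response. Fos (chr12:85473890-85477273, build GRCm38) lay at 2286, 1175, 902 and 1290.1 CPM in macrophages and at 2127, 1649, 1062 and 2144 CPM in stromal cells. WT was highest and db/db 16w lowest in macrophages, while HFD stromal cells were at the WT level, with a log2 ratio of 0.01 (95% interval -0.01 to 0.03). Jun (chr4:95049034-95052222) lay at 3938, 1343, 210.0 and 429 CPM in macrophages, which put db/db 16w 18.8-fold and HFD 9.18-fold below WT. In stromal cells it lay at 1994, 1859, 704 and 2110.2 CPM, and only db/db 16w was low. Junb lay at 3997, 2470.4, 784 and 1211 CPM in macrophages and 2281, 1267, 514 and 1095 CPM in stromal cells, with db/db 16w lowest in both. Jund lay at 4022, 1528, 432 and 559.9 CPM in macrophages and 1609, 1443, 567 and 784 CPM in stromal cells. Jun and Jund were past 2-fold lower in macrophages of all 3 obese libraries, which Junb and Fos were not. Fosb, another AP-1 subunit, lay at 663, 384, 73.5 and 632 CPM in macrophages, where HFD was at -0.07 (95% interval -0.12 to -0.02) relative to WT. In stromal cells it was 3.41-fold higher in HFD than in WT (473, 452, 119.7 and 1614 CPM). Fosl2 was lower in all 3 obese libraries in stromal cells (167, 81.8, 35.2 and 82.8 CPM), and in macrophages db/db 8w was slightly above WT (145, 164, 31.2 and 101 CPM).

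The Egr family are zinc-finger transcription factors induced through serum response factor. Egr1 lay at 2718, 1827, 709 and 3511 CPM in stromal cells, highest in HFD and lowest in db/db 16w. In macrophages it lay at 891, 349, 46.5 and 633 CPM, where db/db 16w was 19.1-fold below WT and HFD 1.41-fold. Past 2-fold higher in all 3 obese libraries were 1 of 38 members in stromal cells, against 3.67% of all genes measured there. Egr2, whose CArG box is printed above, was that member and the only one in either lineage (6.31, 30.1, 15.1 and 92.6 CPM in stromal cells). Its level in WT stromal cells was 6.31 CPM (95% interval 5.51 to 7.19), and the log2 ratios were 2.26, 1.26 and 3.88. With 10 CPM added in place of 1, the db/db 16w ratio was no longer past 2-fold. In macrophages the same gene lay at 84.5, 86.3, 22.5 and 49.0 CPM, so it was level with WT in db/db 8w and lower in db/db 16w and HFD. Egr3 was also higher in HFD stromal cells (13.2, 42.3, 8.70 and 115 CPM), and in macrophages it was under the filter (11.3, 7.54, 0.610 and 20.2 CPM). Stromal cells of the obese libraries also carried more macrophage marker UMIs than those of WT: the summed markers lay at 148, 434, 234 and 559 CPM, which is 1.16, 4.85, 4.32 and 6.81% of their level in macrophages of the same library. All 8 of those markers had UMIs in stromal cells of each library, none being at 0, and their part in the Egr2 values was not tested. In HFD, Egr2 lay at 49.0 CPM in macrophages and at 92.6 CPM in stromal cells. In db/db 8w (86.3 and 30.1 CPM) and db/db 16w (22.5 and 15.1 CPM) macrophages held the higher level.

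Tristetraprolin, encoded by Zfp36 (chr7:28376784-28380253), binds AU-rich elements of cytokine transcripts and speeds their decay. Zfp36 lay at 5269, 2409, 364 and 412 CPM in macrophages and at 1629.5, 1002, 370.2 and 320.3 CPM in stromal cells. In macrophages the 3 obese libraries were 2.19-fold, 14.5-fold and 12.8-fold below WT, and in stromal cells db/db 16w and HFD were both low. The phosphatase gene Dusp1, which switches off MAP kinases, lay at 3583, 1899, 616 and 874 CPM in macrophages and 908, 733, 279 and 535 CPM in stromal cells, lowest in db/db 16w in both. Btg2, an antiproliferative gene, lay at 577, 283, 73.8 and 260.3 CPM in macrophages, past 2-fold lower in all 3 obese libraries, and at 318, 257, 111 and 428 CPM in stromal cells, where HFD was the highest library. Ier5 lay at 856, 327, 64.5 and 148 CPM in macrophages, lower than WT in all 3 by over 2-fold. In stromal cells it lay at 244, 159, 48.6 and 111 CPM, with WT highest there too. Dusp2 lay at 123, 235, 31.1 and 57.7 CPM in macrophages, highest in db/db 8w, and was under the filter in stromal cells (3.99, 20.3, 4.24 and 8.48 CPM). Ier2 and Ier3 lay between 72.7 and 1139.9 CPM in macrophages, both highest in WT and lowest in db/db 16w. In stromal cells Ier2 lay at 467, 431, 162 and 349 CPM and Ier3 at 303, 217, 26.3 and 171 CPM, in which db/db 16w was again lowest.

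Among the other transcription factors, Klf2, which restrains inflammatory genes in myeloid and endothelial cells, lay at 571, 263, 149 and 158 CPM in macrophages, over 2-fold below WT in each obese library. In stromal cells it lay at 498, 346, 28.2 and 330.2 CPM, and db/db 16w alone was far below the others. Klf4 lay at 1248, 904, 242 and 1243 CPM in stromal cells, where HFD was level with WT, with a log2 ratio of -0.01 (95% interval -0.03 to 0.02). In macrophages Klf4 lay at 503, 401, 221 and 400.3 CPM and Klf6 at 1452, 885, 239 and 629 CPM, both lowest in db/db 16w. Klf6 in stromal cells lay at 499, 399.7, 237 and 512 CPM, with HFD at the WT level. The orphan nuclear receptor Nr4a1 lay at 373, 161, 55.8 and 180.1 CPM in stromal cells and was past 2-fold lower in all 3 obese libraries there. In macrophages it lay at 677, 391, 79.9 and 164 CPM, highest in WT and lowest in db/db 16w. Myc lay at 113, 50.9, 24.4 and 43.2 CPM in stromal cells, past 2-fold lower in all 3, and at 8.73, 19.0, 9.31 and 13.8 CPM in macrophages, where db/db 8w was 2.17-fold above WT and the only member past 2-fold higher, which it was not with 10 CPM added. Atf3, a stress-induced factor, lay at 1459.8, 949.6, 269 and 557 CPM in macrophages and 674, 396, 94.2 and 275 CPM in stromal cells. Gadd45b, a growth-arrest gene, was above WT in db/db 8w in both lineages (1033, 1312, 462 and 499 CPM in macrophages and 196, 345, 132 and 286 CPM in stromal cells). Nr4a2 lay at 142, 77.8, 15.4 and 91.2 CPM in macrophages and 30.6, 33.9, 6.79 and 56.5 CPM in stromal cells, so HFD was below WT in the first and above it in the second.

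The NF-kB feedback genes separated db/db 8w from the other obese libraries in macrophages. Nfkbia encodes IkB-alpha, which holds NF-kB in the cytoplasm and is resynthesised after each activation. It lay at 3359, 3657, 292 and 821 CPM in macrophages, where db/db 8w was above WT at a log2 ratio of 0.12 (95% interval 0.10 to 0.14) and db/db 16w was 11.5-fold below it. Tnfaip3 encodes A20, a ubiquitin-editing enzyme that ends NF-kB signalling, and lay at 702, 718, 65.4 and 251 CPM, with db/db 8w not told from WT at this depth (log2 ratio 0.03, 95% interval -0.01 to 0.08). Nfkbiz encodes IkB-zeta, a nuclear partner of NF-kB needed for a later wave of targets, and lay at 1531, 806, 28.2 and 282 CPM. Its db/db 16w level was 54.3-fold below WT. In stromal cells the levels were 997, 683, 226 and 289 CPM for Nfkbia, 143, 134, 20.6 and 127 CPM for Nfkbiz and 77.1, 83.6, 19.5 and 34.6 CPM for Tnfaip3. There db/db 16w was lowest for each of the 3 genes, and HFD was past 2-fold lower than WT for Nfkbia and Tnfaip3.

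**Figure D3:**
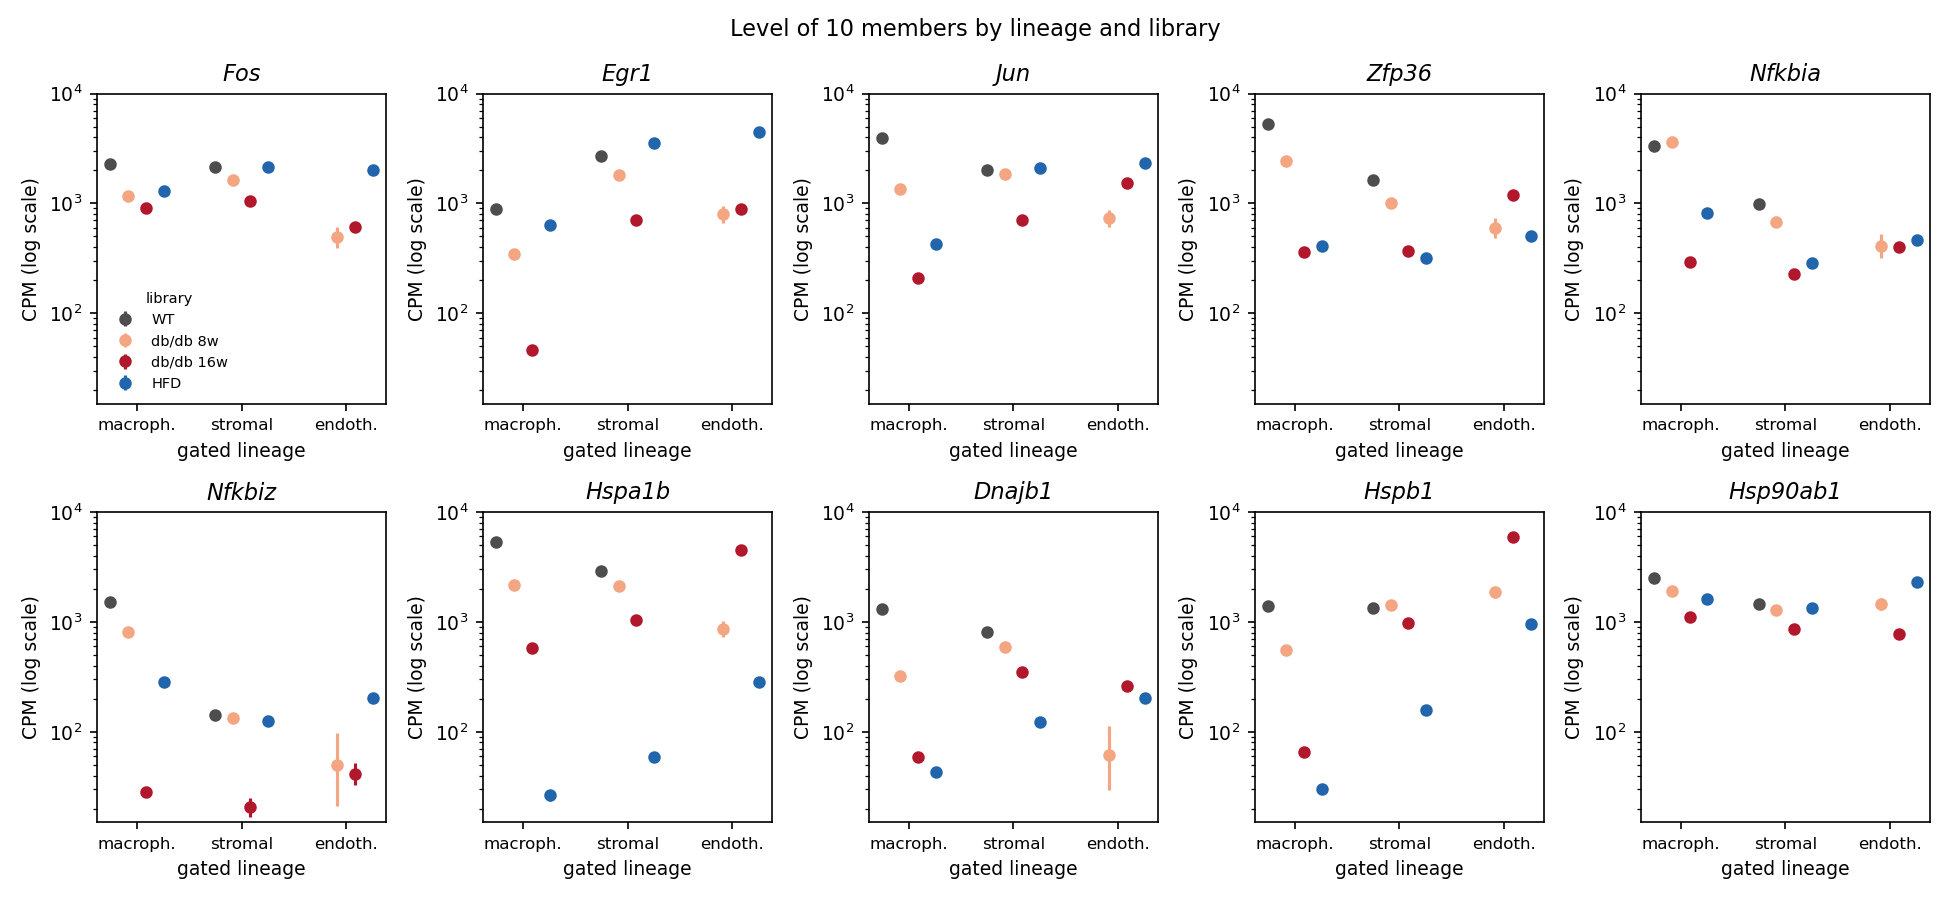
Level (CPM, log axis) of 10 of the genes in macrophages, stromal cells and endothelial cells, with 1 point per library and 95% counting intervals. Zfp36 in macrophages spans 364 CPM (db/db 16w) to 5269 CPM (WT), and Hspa1b 26.4 CPM (HFD) to 5383 CPM (WT).

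Among the heat-shock genes, HFD was the lowest library in both lineages for Hspa1a, Hspa1b, Hspb1 and Dnajb1 and, by a smaller margin, for Hspe1. Hspa1a (chr17:34969190-34972156) and Hspa1b (chr17:34956436-34959238) are neighbours on the minus strand that encode the inducible Hsp70 chaperone. Hspa1b lay at 5383, 2181, 576 and 26.4 CPM in macrophages, with HFD 204-fold below WT (log2 ratio -7.67, 95% interval -7.84 to -7.51). In stromal cells it lay at 2885, 2136, 1044 and 59.4 CPM, and HFD was 48.5-fold below WT. Hspa1a lay at 3757, 1661, 577 and 56.5 CPM in macrophages and 2353, 1722, 844 and 84.2 CPM in stromal cells, in the same order of libraries. The pair made up 36.2, 29.6, 25.6 and 1.79% of the heat-shock UMIs of macrophages and 39.6, 33.9, 31.8 and 3.33% of those of stromal cells. Without them the other 10 genes gave log2 ratios of -0.81, -2.26 and -1.82 in macrophages and -0.09, -0.98 and -0.93 in stromal cells, so that db/db 16w was the lowest library in both.

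The Hspa1a and Hspa1b transcripts resemble each other over part of their length. They were 86.3% identical over their whole lengths of 2967 and 2803 bases and 50.9% identical over the last 300 bases, the end that 3′ libraries read, and how reads of the shared part were split between them was not tested. Hspa1a gave 43.7, 44.0, 49.9 and 63.0% of the UMIs of the pair over all kept cells. Its share was thus highest in HFD, where the pair was low.

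Hspb1 (chr5:135887919-135889563), the small heat-shock protein Hsp27, lay at 1389, 558, 66.1 and 30.1 CPM in macrophages, where db/db 16w was 21-fold and HFD 46.2-fold below WT. In stromal cells it lay at 1335, 1413, 984 and 157 CPM, where HFD alone was far below the others. Dnajb1, an Hsp40 co-chaperone that hands clients to Hsp70, lay at 1322, 320.2, 59.4 and 43.1 CPM in macrophages and 805, 589, 352 and 124 CPM in stromal cells. It was the heat-shock member with the lowest ratio in db/db 8w macrophages (-2.05). Hsph1, an Hsp110 nucleotide exchange factor, lay at 815, 345, 41.7 and 61.7 CPM in macrophages and 372, 309.8, 76.0 and 47.4 CPM in stromal cells. Bag3, the co-chaperone that steers Hsp70 clients to autophagy, lay at 378, 165, 41.5 and 64.9 CPM in macrophages and 238, 209, 85.7 and 121 CPM in stromal cells. Dnajb1, Hsph1, Bag3, Hspb1 and the Hspa1 pair were past 2-fold lower in macrophages of all 3 obese libraries.

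Hspa8, Hsp90ab1, Hspd1 and Hspe1, chaperones that unstressed cells also need, had ratios nearer to 0 than Hspa1b in each obese library and both lineages. Set against Hspb1, this held in macrophages and in HFD stromal cells, but not for each gene in db/db stromal cells. In db/db 16w stromal cells Hspb1 lay nearer to WT than Hspa8, Hsp90ab1 and Hspd1 did. Hspa8, the constitutive Hsp70, lay at 4436, 2715, 1049.5 and 1465 CPM in macrophages and 1622, 1553, 803 and 999 CPM in stromal cells. Hsp90ab1, the constitutive Hsp90, lay at 2526, 1919, 1103 and 1623 CPM in macrophages and 1443, 1273, 866 and 1343 CPM in stromal cells, and its HFD ratio in stromal cells was -0.10 (95% interval -0.13 to -0.08). The inducible form Hsp90aa1 lay at 3641, 1970.2, 417 and 625 CPM in macrophages and 1299, 1256, 327 and 642 CPM in stromal cells, with db/db 16w lowest in both. Among the 6 heat-shock genes given by level, Hsp90ab1 thus had the ratios nearest to 0 in db/db 16w macrophages (-1.20). Dnaja1, an Hsp40 whose paired GAA blocks are printed above, lay at 997, 602, 185 and 299 CPM in macrophages (log2 ratios -0.73, -2.43 and -1.74), lowest in db/db 16w. It lay at 497, 508, 230.2 and 498 CPM in stromal cells, where db/db 16w was low and HFD level with WT (log2 ratio 0.00, 95% interval -0.04 to 0.05). Hspd1 and Hspe1, the mitochondrial chaperonin and its lid, overlap at their starts on opposite strands (chr1:55077835-55088243 and chr1:55088132-55091307). Hspe1 lay at 272, 287, 268 and 181 CPM in macrophages and 221, 231, 228 and 125 CPM in stromal cells. Its db/db 16w ratios, -0.02 (95% interval -0.09 to 0.05) in macrophages and 0.05 (95% interval -0.05 to 0.14) in stromal cells, were not told from 0 at this depth. Its promoter holds the 3-block element printed above. Hspd1 lay at 302, 269, 130.0 and 158 CPM in macrophages and 148, 170.0, 98.9 and 117 CPM in stromal cells.

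The libraries differed in the kinds of macrophage they held. Macrophages gated on Lyve1, Folr2, Cd163 and Cbr2, markers of perivascular resident macrophages, numbered 1018, 1472, 290 and 72. Those gated on Trem2, Cd9, Gpnmb and Spp1, markers of lipid-associated macrophages, numbered 22, 698, 1656 and 1037. Each gate asked for at least 2 UMIs of its list, making up at least 75% of the UMIs of both lists. Macrophages that met neither rule, such as those with many UMIs of both lists, were left out of both kinds. Within the first kind the immediate-early sum was 34925, 24098, 10749 and 17396 CPM and the heat-shock sum 26859, 22941, 7722 and 4896 CPM. The log2 ratios were then -0.54, -1.70 and -1.01 for the immediate-early and -0.23, -1.80 and -2.46 for the heat-shock genes, so that db/db 8w came close to WT for the heat-shock genes while HFD stayed as low as among all macrophages. The NF-kB feedback sum was 5434, 4906, 722 and 1704 CPM. Hspa1b lay at 5772, 4738, 2052 and 120.4 CPM, Hspb1 at 1511, 1298, 299.7 and 71.0 CPM and Jun at 4251, 2541, 706 and 1207 CPM in these cells, with WT highest for each. Egr1 lay at 874, 412, 326 and 2112 CPM, and HFD was the highest library. In cells of the second kind, counted in the obese libraries, the immediate-early sum was 13472, 4523 and 8380.0 CPM (db/db 8w, then db/db 16w, then HFD) and the heat-shock sum 5729, 4115 and 4634 CPM. The NF-kB feedback sum there was 5391, 329 and 1266 CPM, so db/db 8w was far above the other obese libraries. This gate was chosen after the data were seen.

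Endothelial cells showed another order of libraries for the heat-shock genes. In the order db/db 8w, then db/db 16w, then HFD, kept for runs of 3 values, the heat-shock sum was 8543, 18874 and 9159.6 CPM and the immediate-early sum 8512, 11495 and 21588 CPM. The db/db 16w library, lowest for this list in macrophages, held the highest endothelial heat-shock level, and HFD the highest immediate-early level. Hspa1a lay at 1037, 4968 and 482 CPM, Hspa1b at 870.3, 4463 and 285 CPM and Hspb1 at 1870.3, 5940.3 and 964 CPM, and for all 3 the db/db 16w library was above the others. HFD against db/db 16w gave log2 ratios of -3.97 (95% interval -4.04 to -3.89) for Hspa1b and -2.62 (95% interval -2.67 to -2.58) for Hspb1. The constitutive Hsp90ab1 went the other way (1457, 772 and 2294 CPM), with a log2 ratio of 1.57 (95% interval 1.49 to 1.65). Among immediate-early genes Egr1 lay at 796, 884 and 4483 CPM, Fosb at 154, 121 and 1090.1 CPM and Klf4 at 673, 405 and 1778 CPM, each highest in HFD. Klf2, a flow-responsive gene of endothelium, lay at 531, 757 and 1072 CPM. Zfp36 was highest in db/db 16w (599, 1193 and 507 CPM). The NF-kB feedback sum was 494, 457 and 696 CPM, a narrower range than in macrophages. The endothelial cells of db/db 16w were shallow (median 1027 UMIs, where db/db 8w had 1808 and HFD 4443.5), and db/db 8w held only 69 of them. T cells reached 50 only in db/db 8w, with 10486 CPM of immediate-early and 1518 CPM of NF-kB feedback transcripts.

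**Figure D4:**
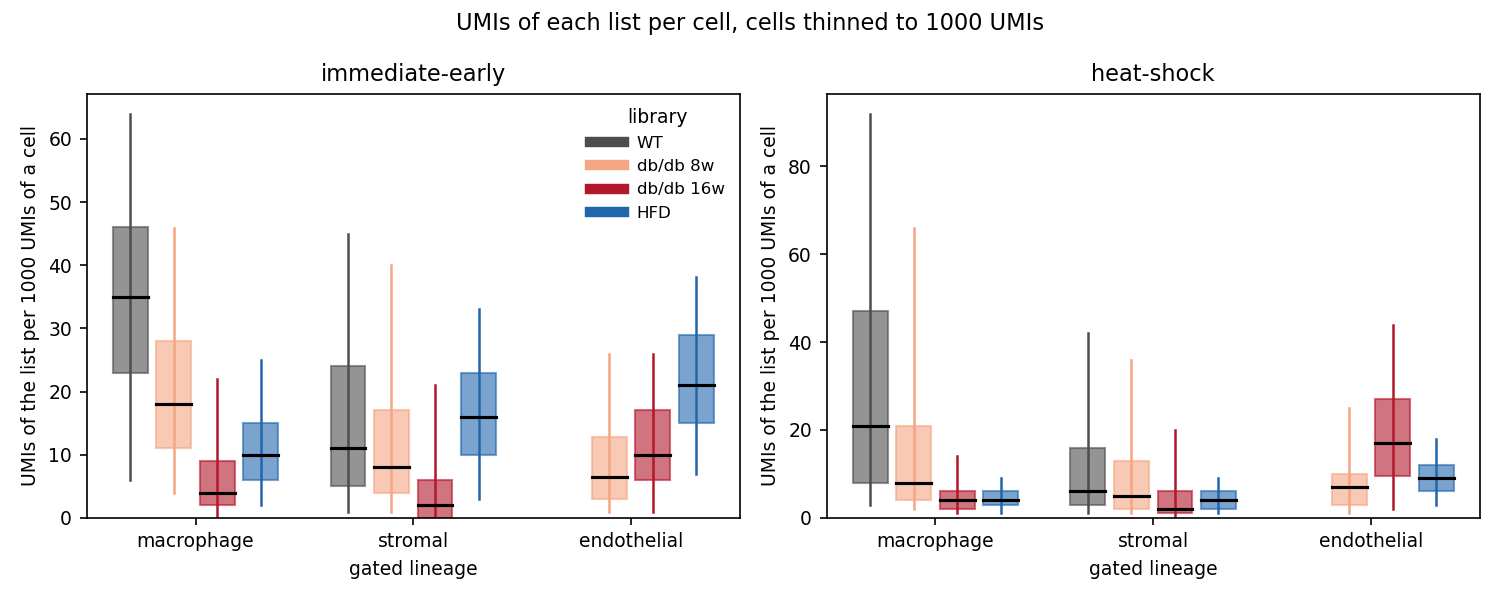
UMIs of the immediate-early genes and of the heat-shock genes per cell after each cell was thinned to 1000 UMIs, by lineage and library, with the median as the black line, the box from the 25th to the 75th and the whisker from the 5th to the 95th percentile of cells. Macrophage medians for the immediate-early genes are 35, 18, 4 and 10 UMIs, WT first, then db/db 8w, then db/db 16w, then HFD.

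The order of the libraries in the middle of the cell distributions was that of the sums for some lists and not for others. With every cell thinned at random to 1000 UMIs, a median macrophage held 35, 18, 4 and 10 immediate-early UMIs and a median stromal cell 11, 8, 2 and 16. HFD was thus above WT in the median stromal cell, whereas its sum was slightly below. A median macrophage held 21, 8, 4 and 4 heat-shock UMIs, and its 95th percentile was 92, 66, 14 and 9, so a tail of cells with many heat-shock UMIs was present in WT and db/db 8w and not in HFD. In stromal cells the medians were 6, 5, 2 and 4 and the 95th percentiles 42, 36, 20 and 9, so db/db 16w had the lowest median, whereas HFD had the lowest sum (4319 CPM, against 5938 CPM in db/db 16w). In endothelial cells the medians were 6.5, 10 and 21 immediate-early and 7, 17 and 9 heat-shock UMIs. Cells under 1000 UMIs were left out, which removed 8, 101, 89 and 0 macrophages and 119, 1554, 130 and 2 stromal cells, and 11, 660 and 3 endothelial cells. Unthinned medians of immediate-early UMIs in macrophages were 203.5, 107, 29 and 61. Across cells of a library, the immediate-early and heat-shock UMIs had a Spearman rho of 0.39, 0.41, 0.32 and 0.00 in macrophages and of 0.49, 0.61, 0.61 and 0.24 in stromal cells. Those cells share a library and its preparation, so these values describe each library and were not tested.

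Depth and mitochondrial share differ between the libraries, and the sums were read again within bins of each. Among macrophages with 5 to 10% mitochondrial UMIs the immediate-early sum was 35214, 19718, 7285 and 8577 CPM. The heat-shock sum was 29310.5, 15309, 4834 and 4755 CPM. The order WT, db/db 8w and then the other libraries was thus also seen within the bin. Only 56 of the 2426 db/db 16w macrophages lay in it. Below 2.5%, where HFD had no cells, the immediate-early sum was 28102, 16428 and 5227 CPM and the heat-shock sum 11506, 11883 and 4473 CPM, so WT was not above db/db 8w for the heat-shock genes there, in 81 and 328 cells. The heat-shock sum of WT macrophages was 22439 CPM at 2.5 to 5% and 34619 CPM at 10 to 15%. Among macrophages with 3000 to 6000 UMIs the heat-shock sum was 37275, 21503, 5155 and 4356 CPM. Heat-shock levels of WT macrophages varied with depth, from 42938 CPM at 1500 to 3000 UMIs to 14464 CPM above 12000, and those of HFD hardly did (4657 and 4869 CPM). In stromal cells the order of WT and HFD for the immediate-early genes differed between bins of depth. In each bin of mitochondrial share with at least 50 HFD cells, HFD lay above WT. At 5 to 10% mitochondrial UMIs the immediate-early sums were 12346, 9973, 3973 and 16453 CPM, with HFD highest and db/db 16w read from 51 cells. At 10 to 15% stromal cells lay at 13465 CPM in WT and 16686 CPM in HFD, and from 15% at 10671 and 11188 CPM. At 3000 to 6000 UMIs their immediate-early sums were 11965, 12022, 6294 and 17852 CPM, with HFD highest, and at 6000 to 12000 UMIs 15847, 15817, 7222 and 15823 CPM, with WT, db/db 8w and HFD at one level and db/db 16w below. Above 12000 UMIs HFD lay below WT, at 11663 CPM in 55 cells against 23496 CPM. In cells of 2000 to 8000 UMIs the HFD log2 ratio was 0.45, against -0.20 over all stromal cells. The db/db 8w ratio in that window was -0.061, and the db/db 16w ratio was -1.09, against -1.77 over all stromal cells. The heat-shock sum of stromal cells with 3000 to 6000 UMIs was 10038, 9443, 6944 and 4191 CPM, and HFD stayed lowest. At 6000 to 12000 UMIs it was 12309, 13494, 6902 and 4393 CPM, with db/db 8w above WT and HFD lowest. Above 12000 UMIs WT was again above db/db 8w, at 15010 against 12169 CPM. For the NF-kB feedback genes the order of WT and db/db 8w differed between bins of depth. At 3000 to 6000 UMIs macrophages lay at 4425 CPM in WT and 5135 CPM in db/db 8w, and stromal cells at 494 and 655 CPM. At 6000 to 12000 UMIs WT was the higher, with 6012 against 5558 CPM in macrophages and 893 against 819 CPM in stromal cells. What part depth and mitochondrial share have in these levels was not tested.

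**Figure D5:**
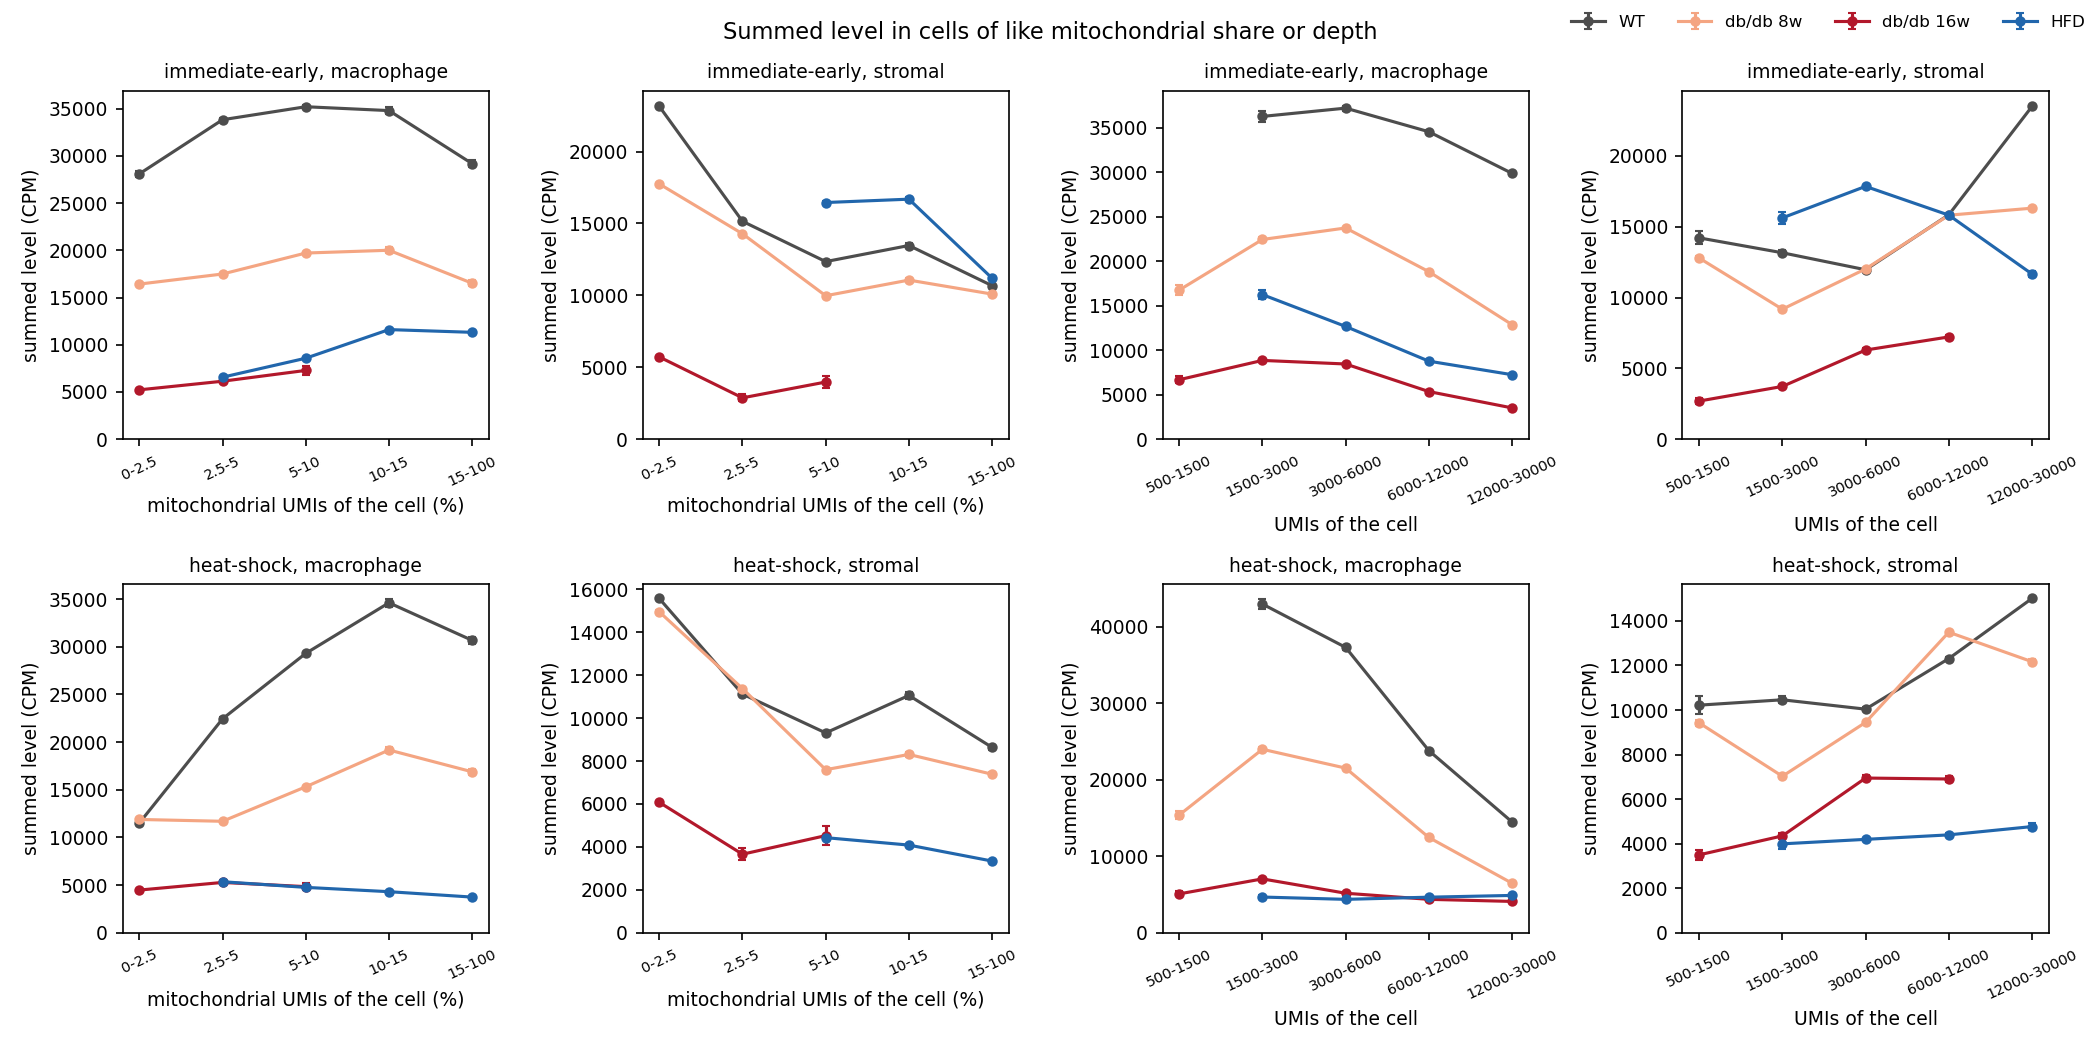
Summed immediate-early and heat-shock levels (CPM, axis from 0) of macrophages and stromal cells within bins of mitochondrial share (percent) and of UMIs per cell, with 1 line per library and 95% counting intervals, for bins of at least 50 cells. WT macrophages stay above the obese libraries in the bin of 5 to 10% mitochondrial UMIs at 35214 CPM of immediate-early transcripts, while the stromal lines of WT and HFD cross with depth.

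Genes of the same pathways outside the list were read from lists set by role. Each run of 3 counts below is to be read against the shares of all genes measured, which were 3.75, 22.2 and 9.02% lower and 5.38, 19.1 and 12.8% higher in macrophages. In stromal cells those shares were 2.08, 12.8 and 6.34% lower and 5.22, 12 and 8.99% higher. Among further immediate-early genes, 2, 16 and 14 of 23 measured in macrophages were past 2-fold lower (db/db 8w first, then db/db 16w, then HFD) and 3, 0 and 1 past 2-fold higher. In stromal cells 2, 14 and 6 of 25 were lower and 4, 3 and 6 higher. Rhob, a small GTPase gene, lay at 407, 201, 70.0 and 155 CPM in macrophages, and Ccn1, a secreted matrix protein gene, at 53.9, 25.7, 3.66 and 21 CPM, both past 2-fold lower in all 3 obese libraries. In stromal cells Socs3, the feedback inhibitor of JAK and STAT signalling, lay at 705, 302, 138 and 87.4 CPM and Errfi1, a brake on the EGF receptor, at 701, 306, 104 and 195 CPM, also lower in all 3. Arc, a cytoskeletal gene best known from neurons, lay at 4.81, 37.8, 15.7 and 35.8 CPM and the ERK phosphatase gene Dusp5 at 6.90, 30.7, 17.2 and 33.8 CPM, both higher in all 3, as Egr2 was. Sgk1, a kinase gene named after its values were seen, was also higher in all 3 there (68.2, 151, 211 and 210.0 CPM). Arc and Dusp5, like Egr2, were low in WT stromal cells, so their ratios depend on the CPM added. Dusp5 had a mean of 102 CPM in macrophages, and the part of macrophage RNA in its stromal values was not tested. Regulators upstream, such as serum response factor and its cofactors, were lower for 0, 4 and 1 of 13 genes in macrophages and for 0, 1 and 0 in stromal cells, and higher for 0, 0 and 1 in macrophages and for 0, 1 and 2 in stromal cells. The NF-kB family list had 0, 12 and 5 of 14 genes lower in macrophages and 0, 5 and 1 of 13 in stromal cells, with none higher except 2 in HFD stromal cells. Co-chaperones and other heat-shock factor targets had 1, 7 and 4 of 24 genes lower in macrophages and 0, 5 and 5 of 27 in stromal cells. Of this list 0, 2 and 1 genes were higher in macrophages and 0, 0 and 2 in stromal cells. Chaperones outside the heat-shock response are those of the endoplasmic reticulum, the mitochondria and the chaperonin ring. Of these 0, 2 and 0 of 16 were lower in macrophages and 1, 2 and 1 higher, with median log2 ratios of 0.67, 0.73 and 0.72. Their sum in macrophages lay at 3441, 4686, 2867 and 3476 CPM, with log2 ratios of 0.45, -0.26 and 0.01. By the sum db/db 16w was thus below WT and HFD level with it. In stromal cells 0, 1 and 0 were lower and 0, 0 and 1 higher. The 10 housekeeping genes summed to 13030.2, 16096, 23692 and 18813 CPM in macrophages and to 10063, 8864, 11203 and 9043 CPM in stromal cells, so a larger share of the macrophage UMIs of the obese libraries came from them.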

How the data were processed

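Single-cell RNA sequencing of the SVF of mouse brown fat gave 4 libraries, 1 per group. The deposited values are raw UMI counts, in whole numbers, that the authors obtained from 10x 3′ reads with Cell Ranger on mm10 (version 7.1.0 by the submitters' processing notes, 6.0.0 by the file headers). They hold called barcodes before quality filters. The label's extraction protocol describes bulk RNA and was not used. Groups came from sample titles, and no column was left unmapped.

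Barcodes were kept between 250 and 6000 genes, between 500 and 30000 UMIs and below a mitochondrial share of 15%, which left 5944, 11648, 5833 and 5462 cells in the order WT, db/db 8w, then db/db 16w, then HFD, out of libraries of 51357400, 61828295, 28504069 and 57279299 UMIs. A cell was put in a lineage with at least 3 UMIs from at least 2 of its markers, making up at least 75% of the marker UMIs of all 4 lineages. No doublet caller was run. The 75% limit removes only cells in which no lineage holds that share of the marker UMIs, so some mixed cells can stay. In db/db 8w, stromal markers summed to 45102 CPM in stromal cells and macrophage markers to 8938 CPM in macrophages. A mixed cell of these 2 kinds can therefore pass as stromal. Levels were sums of UMIs per 1000000 UMIs. Intervals cover counting error only. A gene counted as past 2-fold at a log2 ratio of at least 1 in size, with 1 CPM added and a mean of at least 10 CPM. No test was run, since each group is 1 library. The calculation was tested on simulated counts with known ratios.

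All 39 members were named by role. Given in full were the 8 immediate-early, 3 NF-kB feedback and 6 heat-shock members with the highest mean level in macrophages or stromal cells, and those past 2-fold one way in all 3 obese libraries in either lineage. From each pathway list up to 4 such genes were named in each lineage, and Sgk1 was added after its values were seen. A further such gene is not reported here. The members and lists were chosen with earlier results of these data known. Positions came from GENCODE M21 (GRCm38), which held 32235 of 32285 gene IDs (99.8%), and promoters from RefSeq, which gave none here for Myc, Hsp90aa1, Egr1, Hspa8, Egr3, Nfkbiz, Hsp90ab1 and Ier2. Alternatives were no mitochondrial limit, a stricter gate (6 UMIs from 3 markers and 95%), the mean over cells, cells of 2000 to 8000 UMIs, the list without its gene with most UMIs, the total without mitochondrial and ribosomal protein genes, the median of the genes, 10 CPM added, a mean of at least 50 CPM, and no filter. Python 3.11.15, NumPy 2.4.6, SciPy 1.17.1, pandas 2.3.3, Matplotlib 3.10.9 and Biopython 1.88 were used.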

Additional observations from a re-analysis of the deposited data

Results flagged for a closer look

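For 9 members the ratio to WT lay on opposite sides of 0 in macrophages and in stromal cells of the same library, with both 95% counting intervals clear of 0 and a gap of over 1 on the log2 scale. The genes read had a mean of at least 10 CPM over the 4 libraries in both lineages. This held for 4, 1 and 7 of 37 members in db/db 8w, then db/db 16w, then HFD, against 4.28, 7.32 and 7.77% of the 6640 genes. Each value is the stromal log2 ratio minus the macrophage log2 ratio, and these differences were not tested, since each group is 1 library. In HFD against WT the gap was 4.66 for Egr2 (stromal 3.88, macrophage -0.79), 3.28 for Jun (0.08 and -3.20), 1.84 for Fosb (1.77 and -0.07), 1.59 for Gadd45b (0.55 and -1.05), 1.58 for Btg2 (0.43 and -1.15), 1.52 for Nr4a2 (0.88 and -0.64) and -2.05 for Myc (-1.38 and 0.66). In db/db 8w it was 1.40 for Hspb1 (0.08 and -1.32), 1.02 for Nr4a2 (0.15 and -0.87), -1.20 for Fosl2 (-1.03 and 0.17) and -2.27 for Myc (-1.15 and 1.12). In db/db 16w it was 3.16 for Egr2 (1.26 and -1.91). For Myc in db/db 16w (stromal -2.21, macrophage 0.09) the macrophage interval of -0.32 to 0.52 included 0. Stromal cells of HFD were shallower than those of WT and their macrophages were not, and the part of depth in these gaps was not tested.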

How the results depend on the processing

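No paired analysis was possible because each group has 1 library, and for the same reason none could be left out. Of 90 alternative values of the summed log2 ratios to WT, 10 stayed within the counting interval, 78 left it in the same direction and 2 changed sign, both for immediate-early genes in stromal cells of HFD (0.071 as a mean over cells and 0.45 in cells of 2000 to 8000 UMIs, against -0.20). Values that left it follow in the order db/db 8w, then db/db 16w, then HFD. Without a mitochondrial limit the ratios were -0.90, -2.66 and -1.74 for immediate-early genes in macrophages, -0.43, -1.73 and -0.30 for immediate-early genes in stromal cells, -0.97, -2.51 and -2.55 for heat-shock genes in macrophages and -0.25, -1.13 and -1.68 for heat-shock genes in stromal cells. Under the stricter gate the ratios were -0.85 and -1.91 (db/db 8w and HFD) for immediate-early genes in macrophages, -0.18 (HFD) for immediate-early genes in stromal cells, -0.69, -2.30 and -2.30 for heat-shock genes in macrophages and -0.21 and -1.67 (db/db 8w and HFD) for heat-shock genes in stromal cells. As a mean over cells the ratios were -0.80, -2.41 and -1.67 for immediate-early genes in macrophages, -0.34 and 0.071 (db/db 8w and HFD) for immediate-early genes in stromal cells, -0.88, -2.63 and -2.78 for heat-shock genes in macrophages and -0.27, -1.19 and -1.49 for heat-shock genes in stromal cells. In cells of 2000 to 8000 UMIs the ratios were -0.71, -2.29 and -1.65 for immediate-early genes in macrophages, -0.061, -1.09 and 0.45 for immediate-early genes in stromal cells, -0.85, -2.77 and -3.00 for heat-shock genes in macrophages and -0.11, -0.73 and -1.36 for heat-shock genes in stromal cells. Without the gene with the most UMIs the ratios were -0.94, -2.73 and -1.84 for immediate-early genes in macrophages, -0.40, -1.74 and -0.33 for immediate-early genes in stromal cells, -1.02, -2.58 and -2.71 for heat-shock genes in macrophages and -0.16, -1.08 and -1.28 for heat-shock genes in stromal cells. Without mitochondrial and ribosomal protein genes in the total the ratios were -0.86, -2.56 and -1.76 for immediate-early genes in macrophages, -1.72 and -0.19 (db/db 16w and HFD) for immediate-early genes in stromal cells, -0.91, -2.36 and -2.37 for heat-shock genes in macrophages and -1.11 and -1.60 (db/db 16w and HFD) for heat-shock genes in stromal cells. As the median over the genes the ratios were -0.75, -2.57 and -1.18 for immediate-early genes in macrophages, -0.34 and -1.96 (db/db 8w and db/db 16w) for immediate-early genes in stromal cells, -1.03, -2.91 and -2.53 for heat-shock genes in macrophages and -0.12 and -0.99 (db/db 8w and HFD) for heat-shock genes in stromal cells. In macrophages gated on Lyve1, Folr2, Cd163 and Cbr2 UMIs the ratios were -0.54, -1.70 and -1.01 for immediate-early genes. For heat-shock genes they were -0.23 and -1.80 (db/db 8w and db/db 16w). This alternative was chosen after seeing the data.

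Of 60 alternative counts of members past 2-fold, 48 stayed within 1.5 times. In macrophages the 1 member higher in db/db 8w, Myc, was lost (0 members) with 10 CPM added, at a mean of at least 50 CPM and without a mitochondrial limit, and HFD had 1 higher in place of 0 without the limit and in cells of 2000 to 8000 UMIs. In stromal cells the members higher in db/db 8w went from 2 to 0 at a mean of at least 50 CPM, and those higher in db/db 16w from 1 to 0 there and with 10 CPM added. The members higher in HFD went from 3 to 1 at a mean of at least 50 CPM and to 6 in cells of 2000 to 8000 UMIs. In those cells the members lower went from 3 to 1 in db/db 8w and from 15 to 6 in HFD. The cause of these moves was not tested, and no share of all genes is given for the alternative counts. With 1 library per group, neither the spread between mice nor that between preparations is known, and the libraries differed in depth, mitochondrial share and cell make-up.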
